A study of Rattus norvegicus with 232 samples.

Results

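The neuronal nicotinic acetylcholine receptor subunit genes of the rat were followed across inbred strains in brain RNA. The members were chosen by symbol and are Chrna2, Chrna3, Chrna4, Chrna5, Chrna6, Chrna7, Chrnb2, Chrnb3 and Chrnb4, 9 of the 20859 features of the gene table used. RNA was measured in untreated rats of the Hybrid Rat Diversity Panel, with tissue labelled as whole brain, by stranded total RNA sequencing after removal of ribosomal RNA. The table held 214 libraries of 197 animals from 74 strains, out of 232 samples described in the labels, and 54 strains had 3 animals, 15 had 2 and 5 had 1. Of the strains, 30 (88 animals) belonged to the HXB/BXH recombinant inbred family, bred from SHR/OlaIpcv and BN-Lx/Cub. A further 19 strains (43 animals) belonged to the FXLE/LEXF family, bred from F344/Stm and LE/Stm, and 25 strains (66 animals) were classic inbred strains, the progenitors included. By the study's methods, libraries were made from 1 hemisphere per animal. No group carried a transgene or a drug treatment. Besides strain, groups differed in the source and storage of the tissue. By the study's methods, brains of the HXB/BXH family and its progenitors came from a colony in Prague, stored in liquid nitrogen. Brains of the other inbred strains they cover came from rats of commercial vendors and were placed in RNAlater. Over all strains and among the classic inbred strains, strain cannot be told apart from these differences. Sex was labelled male where the labels gave it, and the study's methods describe young adult males for the strains they cover.

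Nicotinic receptors are pentameric cation channels opened by acetylcholine and by nicotine. In brain the most common forms join α4 with β2 subunits or are built of α7 alone. Receptors with α3 and β4, often joined by α5, are known from the medial habenula and autonomic ganglia, and α6 and β3 are known from receptors on dopamine neurons. Chrna3, Chrna5 and Chrnb4 lie side by side in 1 gene cluster, which in humans is known for its association with smoking.

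Values were on a log2 scale, and how the table used here was transformed is not given in the sources used here. No counts were given, so that the depth of each library is unknown and the number of animals limits the precision. The median of a library lay between 8.18 and 8.42. Libraries fell into 17 batches by the labels, and 62 strains had animals in more than 1 batch. For 23 libraries the batch in the sample title was another than that in the batch field. Values given with the batch in the fit use the batch field. The mean of 5 neuronal markers lay between 14.13 and 14.57 in every animal, the LE/Stm animal with high liver markers named below included. Such markers cannot tell whole brain from a part of it, so that they are no check of the tissue label. Animals were set against the strain means by the 500 features with the highest strain effect. These features were chosen for differing by the same labels in the same animals, which favours the labelled strain, so that a match is no check of the label and only mismatches are given. Animal 2 labelled HXB17/Ipcv was closest to LEW/Crl (r = 0.779, against 0.304 to its own strain), and animal 3 of LEXF2C/Stm to LEXF7B/Stm (r = 0.393 against 0.293). The 3 animals labelled LEW/Crl and animal 2 of HXB17/Ipcv had a mean of 3 Y-linked genes between 9.06 and 9.46, and every other animal was at 9.94 or above. The only LE/Stm animal of the table had a mean of 4 liver markers of 18.77, against a median of 8.04. Where a result rests on these animals, the value without them is given if it was computed. Animal 1 of BXH13/Cub, doubtful in another table of the series, was left out together with the LEW/Crl and LE/Stm animals where animals in doubt are named. Further animals held in doubt are not in this table but are in the v5 table. They are animal 2 of F344/NCrl, animal 1 of SHRSP/A3NCrl, animal 1 of HXB2/Ipcv and animals 1 and 3 of LE/Stm. No animal in doubt was left out of the v5 values given below.

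The position of the cluster genes bears on how their reads are assigned. In the deposited v7.1 annotation, whose genome build is not given in the sources used here, Chrna5 lay on the plus strand at chr8:55369794-55401533 and Chrna3 on the minus strand at chr8:55398973-55415130. The tails of these genes overlapped by 2561 bases, all of them exonic in both genes. The transcripts that carry Ensembl identifiers did not overlap and were 447 bases apart. Chrnb4 followed on the minus strand at chr8:55416573-55437189, after a gap of 1442 bases. Chrna6 (chr16:64697271-64705535, plus strand) lay within the span of Chrnb3 (chr16:64691950-64751499, minus strand), with 0 shared exon bases. This overlap is one of reconstructed transcripts, while the levels below come from the RefSeq gene table. The libraries were stranded and use of the strand in counting is not stated, so it is unknown whether reads of the Chrna5 and Chrna3 tails were kept apart.

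Promoter sequences are shown for the 3 cluster genes, whose levels are compared pairwise, and for Chrna4 and Chrnb2, whose levels moved together. They run from 250 bases before to 50 bases after the start of the gene, 5′ to 3′ on the gene's strand, and come from RefSeq on build GRCr8. The places are chr8:64265629-64265928 (plus) for Chrna5, chr8:64311202-64311501 (minus) for Chrna3, chr8:64333060-64333359 (minus) for Chrnb4, chr3:188534477-188534776 (minus) for Chrna4 and chr2:177487257-177487556 (minus) for Chrnb2. Capitals mark the GC box, searched as GGGCGG and, for the other strand, CCGCCC.
Chrna5: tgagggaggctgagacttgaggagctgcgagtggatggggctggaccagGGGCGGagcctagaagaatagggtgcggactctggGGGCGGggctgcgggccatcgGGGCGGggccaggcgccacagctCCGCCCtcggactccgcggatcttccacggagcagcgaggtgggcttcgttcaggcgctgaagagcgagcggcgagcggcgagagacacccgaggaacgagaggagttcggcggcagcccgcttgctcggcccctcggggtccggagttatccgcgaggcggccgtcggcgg
Chrna3: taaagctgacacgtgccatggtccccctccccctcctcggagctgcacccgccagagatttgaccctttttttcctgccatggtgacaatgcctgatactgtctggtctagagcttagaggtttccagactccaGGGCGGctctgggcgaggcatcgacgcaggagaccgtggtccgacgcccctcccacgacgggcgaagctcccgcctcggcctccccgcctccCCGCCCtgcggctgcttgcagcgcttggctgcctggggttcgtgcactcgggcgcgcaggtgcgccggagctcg
Chrnb4: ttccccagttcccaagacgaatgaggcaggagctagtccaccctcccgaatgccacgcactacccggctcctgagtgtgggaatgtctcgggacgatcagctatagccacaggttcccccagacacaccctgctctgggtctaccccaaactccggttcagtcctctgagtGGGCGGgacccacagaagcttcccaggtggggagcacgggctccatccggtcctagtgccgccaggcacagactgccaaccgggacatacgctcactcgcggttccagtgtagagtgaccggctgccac
Chrna4: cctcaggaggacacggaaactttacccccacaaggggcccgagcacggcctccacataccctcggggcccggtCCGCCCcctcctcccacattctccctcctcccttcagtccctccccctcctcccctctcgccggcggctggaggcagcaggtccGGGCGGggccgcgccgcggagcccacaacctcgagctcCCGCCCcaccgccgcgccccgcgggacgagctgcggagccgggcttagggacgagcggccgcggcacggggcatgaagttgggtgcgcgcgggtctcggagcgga
Chrnb2: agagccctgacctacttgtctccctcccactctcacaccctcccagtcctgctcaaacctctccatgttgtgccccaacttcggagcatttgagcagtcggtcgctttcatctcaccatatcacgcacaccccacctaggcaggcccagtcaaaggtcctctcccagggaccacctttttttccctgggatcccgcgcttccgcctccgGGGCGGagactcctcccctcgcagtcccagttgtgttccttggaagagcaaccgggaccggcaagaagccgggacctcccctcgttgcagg
A GC box stood 4 times in the Chrna5 promoter, 3 times in that of Chrna4, 2 times in that of Chrna3 and 1 time each in those of Chrnb4 and Chrnb2. Of 33469 rat promoters of this length, 33.1% held at least 1. In all, 6 of the 9 members had an entry, and Chrna7 held 2 GC boxes. Each of the 6 promoters held between 61.0% and 74.7% G and C, above the median of 51.7% over all promoters. The E-box CACGTG, equal on both strands, stood in the promoters of Chrna3 and Chrna7 and in 6.42% of all. The E-box CAGCTG was in none of the 6 and in 15.1% of all, and TATAAA, or TTTATA on the other strand, was in none of the 6 and in 14.2% of all. These matches are a description of letters and not of bound sites.

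Levels of the 9 genes spanned a wide range (see the plot of strain means by panel). On the deposited log2 scale, the mean over animals was 10.61 for Chrna4, 10.34 for Chrnb2, 8.40 for Chrna7, 7.98 for Chrna5, 6.64 for Chrnb3, 6.05 for Chrna3, 5.42 for Chrna6, 4.14 for Chrna2 and 3.47 for Chrnb4. Chrna4 lay above 77.7% of the features of the table and Chrnb4 above 16.0%. To compare genes, the log2 level was taken per kilobase of the longest and of the shortest annotated transcript with an Ensembl identifier. On that scale Chrna4 (7.61 to 8.83) and Chrnb2 (8.20) were at the top and could not be ordered. Chrna7 covered 3.57 to 7.80, since its annotated transcripts run from 1509 to 28430 bases, and so took no fixed place. Chrna5 (5.30 to 6.39), Chrna3 (5.35 to 5.46) and Chrnb3 (5.25) followed, with Chrnb3 next to the lower end of Chrna5. Chrna6 was lower at 3.61, and Chrna2 (2.75 to 3.19) and Chrnb4 (2.69 to 2.90) overlapped at the bottom. In bulk tissue, fewer cells of a type and less RNA per cell cannot be told apart.

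**Figure D1:**
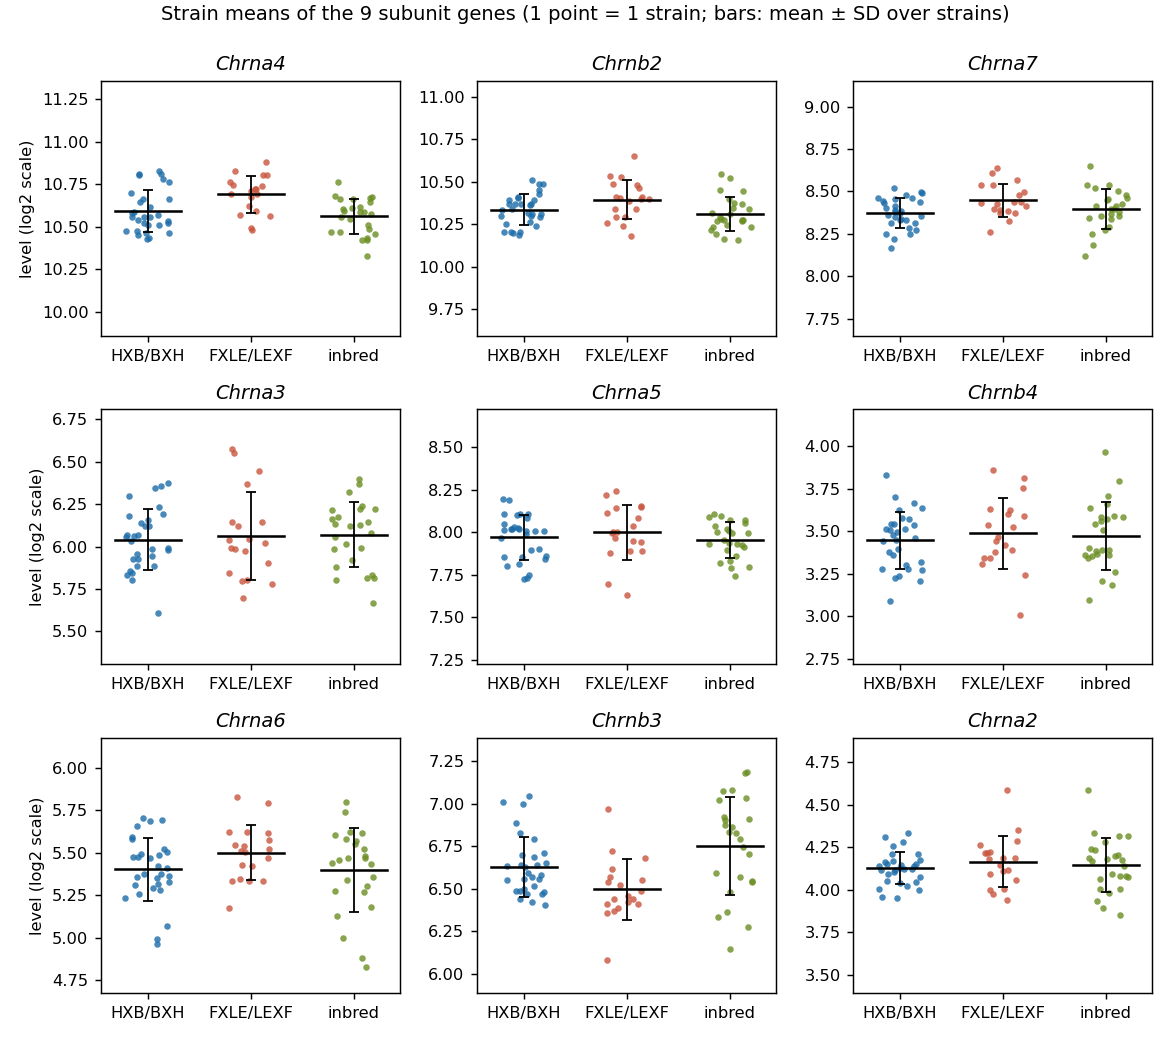
Strain means of the 9 subunit genes on the log2 scale, with 1 point per strain in each of the 3 panels and bars for the mean ± SD over strains (30, 19 and 25 strains). The 3 panels overlap for every gene, and Chrnb3 has its widest spread among the classic inbred strains (SD 0.29).

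How much of the spread between animals lay between strains was expressed as a broad-sense R2 (the share of the total sum of squares that lies between strains), computed in the 69 strains (192 animals) with 2 or more animals. A gene was called for strain where limma's moderated F-test passed a false discovery rate of 5% over all features (Benjamini-Hochberg adjustment). With no strain effect, R2 in this layout would be 0.356, and its median over all features was 0.434. Within HXB/BXH, FXLE/LEXF and the classic inbred strains R2 with no strain effect would be 0.333, 0.385 and 0.349. The medians there were 0.409, 0.473 and 0.427. Since this level changes with the number of strains and animals in a fit, R2 values of different fits are not on 1 scale. Over all strains 3 of the 9 members were called, Chrnb3, Chrna5 and Chrna3, against 37.1% of all features. Within HXB/BXH 1 of 9 was called (background 19.2%), within FXLE/LEXF 0 of 9 (background 5.27%) and within the classic inbred strains 2 of 9 (background 18.6%). With the batch in the fit, 4 of 9 were called over all strains (background 59.4%), the addition being Chrna6 (R2 = 0.474, adjusted p = 0.0414 by limma). R2 with no strain effect would be 0.377 in that fit, and the median over all features was 0.494, above that of Chrna6. With the batch of the sample title in place of the batch field, Chrna6 had an adjusted p of 0.0466 (limma).

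**Figure D2:**
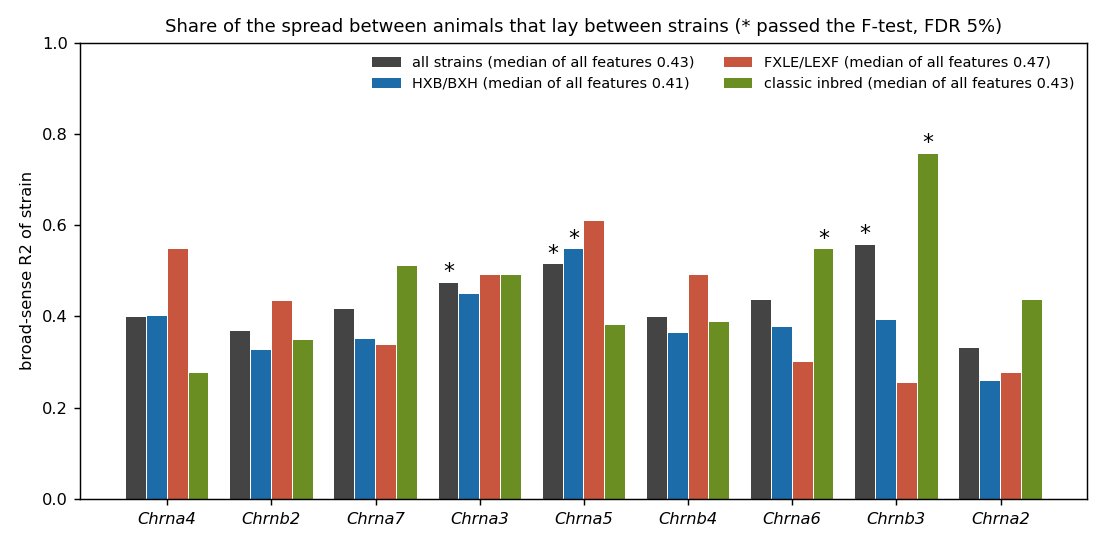
Broad-sense R2 of strain for each subunit gene over all strains and within each panel, with stars on those past the limma F-test at a false discovery rate of 5%. Chrnb3 reaches 0.756 in the classic inbred strains and 0.254 in FXLE/LEXF, while Chrna5 is at 0.547 in HXB/BXH and 0.608 in FXLE/LEXF. R2 with no strain effect differs between the panels (0.349 in the classic inbred strains, 0.333 in HXB/BXH and 0.385 in FXLE/LEXF). Chrna5 lies above 86.5% of all features in HXB/BXH and above 86.6% in FXLE/LEXF.

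For each gene the lowest and highest strains of at least 2 animals are given with all their animals. These strains were picked by their means out of all strains, so their values are a description. In all 9 genes the animals of the lowest and the highest strain did not overlap, Chrna2 with a between-strain component of 0 included. The same held for 98.7% of all features, so that it is no result about the members.

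Chrna4 and Chrnb2 encode the subunits of the main high-affinity nicotine receptor of the brain. Neither passed the test over all strains, with an R2 of 0.399 for Chrna4 (adjusted p = 0.230, limma) and 0.368 for Chrnb2 (adjusted p = 0.428, limma). Each was called in another deposited table, Chrnb2 in the v5 table (R2 = 0.583, adjusted p = 1.03e-04, limma) and Chrna4 in the v7.1 table of reconstructed genes (R2 = 0.464, adjusted p = 0.0437, limma). The between-strain component made up 6.76% of the variance of Chrna4 and 1.81% of that of Chrnb2. The lowest Chrna4 strain was SHR/OlaIpcv, with animals at 10.44 and 10.22, and the highest was LEXF5/Stm, with animals at 10.72 and 11.04. The strain means were 1.47-fold apart. LEXF5/Stm was also the highest strain for Chrnb2, with animals at 10.47 and 10.84, and the lowest was LH/MavRrrc with 10.22, 10.16 and 10.09. The Chrnb2 extremes were 1.41-fold apart. Each SHR/OlaIpcv value is a mean, over 12 libraries for the first animal and 6 for the other. The 12 libraries of the first animal had an SD of 0.17 for Chrna4 and 0.23 for Chrnb2, and the 6 libraries of the other an SD of 0.063 and 0.10. The SD between animals of a strain was 0.18 for Chrna4 and 0.16 for Chrnb2, which lies between those of the repeated libraries for Chrnb2 and close to the wider one for Chrna4.

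Chrna7 encodes the subunit of the α7 receptor, known for its high calcium permeability. Its R2 over all strains was 0.417 (adjusted p = 0.179, limma) and 0.510 within the classic inbred strains (adjusted p = 0.123, limma). Over all strains it was called in the v6 table (R2 = 0.489, adjusted p = 0.0237, limma) and in the v5 table (R2 = 0.496, adjusted p = 0.00989, limma). SHR/OlaIpcv was again lowest, with animals at 8.20 and 8.04, and WAG/RijCrl was highest, with 8.49, 8.93 and 8.52. The means were 1.44-fold apart. BN-Lx/Cub, the other progenitor of HXB/BXH, had the lowest mean but 2, with animals at 8.03, 8.40 and 8.13.

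Of the cluster genes, Chrna5, whose subunit joins other pairs as an accessory subunit, had the highest R2 over all strains in the gene table. In the transcript table, its only matched transcript, NM_017078.2, had an R2 of 0.381 (adjusted p = 0.490, limma) and that of Chrna3 0.470. NM_017078.2 had a mean of 5.43, where the gene was at 7.98, and r = 0.14 to the gene across strain means. Its R2 thus does not stand for the gene level. The gene-level R2 of Chrna5 was 0.514 over all strains (adjusted p = 0.00492, limma) and 0.547 within HXB/BXH (adjusted p = 0.0176, limma), above 86.5% of all features in that family. In FXLE/LEXF it was 0.608, above 86.6% of all features there, and did not pass (adjusted p = 0.168, limma). Chrna5 was called there without all animals numbered 3 (adjusted p = 0.0437, limma) and in the v6 table (5 strains). In the classic inbred strains R2 was 0.382 without a call, where the v5 table gave 0.619 (adjusted p = 0.0154, limma). The lowest strain of at least 2 animals was FXLE15/Stm, with 7.69 and 7.70, and the highest was LEXF10A/Stm, with 8.12, 8.21 and 8.39. Both strains are of the FXLE/LEXF family, and their means were 1.46-fold apart. The between-strain component was 24.8% of the variance. Without all animals numbered 1 or 3 the call over all strains was lost (adjusted p = 0.144 and 0.20, limma), as was that within HXB/BXH (adjusted p = 0.295 and 0.511, limma). In the v6 table both calls were lost (adjusted p = 0.0938 and 0.189, limma), and in the v5 table that within HXB/BXH (adjusted p = 0.185, limma).

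Chrna3 encodes the α3 subunit, which pairs with β4 in habenula and ganglia. Its R2 over all strains was 0.474 (adjusted p = 0.0239, limma), and within single panels it lay between 0.449 and 0.492 without a call. BXH13/Cub was lowest, with animals at 5.52, 5.34 and 5.96, and a mean of 5.61 that became 5.65 without the animal in doubt. LEXF5/Stm was highest, with 6.55 and 6.60, and DA/OlaHsd followed with 6.36, 6.41 and 6.43. The strain means were 1.95-fold apart. Leaving out all animals with replicate number 1, 2 or 3 in turn ended the Chrna3 call each time, with adjusted p between 0.0508 and 0.588 (limma), and those fits held fewer animals per strain. The numbers go in part with the batch, and the 15 animals of batch 2 and the 6 of batch 18 all carried number 1. The call was also lost in the v6 table (adjusted p = 0.0772, limma).

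Chrnb4 encodes β4 and was the lowest gene on the log2 scale. Its R2 was 0.398 (adjusted p = 0.231, limma), and it was called in no panel of the table used here. Within FXLE/LEXF it was called in the v6 table (5 strains, adjusted p = 0.0438, limma, background 18.1%). In the v5 table it was called over all strains (R2 = 0.507, adjusted p = 0.00337, limma). LEW/Crl was highest, with animals at 3.65, 4.60 and 3.64, so that 1 animal set its mean, and all 3 are animals in doubt. FXLE15/Stm followed, with 3.84 and 3.88, and HXB17/Ipcv came next with 3.66, 3.76 and 4.09. Without the HXB17/Ipcv animal that was closest to LEW/Crl, its mean moved from 3.83 to 3.87. The lowest strain was HXB7/Ipcv, with 3.08, 3.32 and 2.87. FXLE15/Stm thus was the lowest strain for Chrna5 and the next to highest for Chrnb4, among strains of at least 2 animals.

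Chrnb3, whose subunit is an accessory of α6 receptors, had the highest R2 of the 9 members over all strains and within the classic inbred strains. It was 0.557 over all strains (adjusted p = 1.82e-04, limma) and 0.756 within the classic inbred strains (adjusted p = 7.86e-06, limma), above 96.7% of all features there. Within FXLE/LEXF it was 0.254 (adjusted p = 0.898, limma), and within HXB/BXH 0.392 (adjusted p = 0.295, limma). The difference in R2 between panels was not tested. BDIX/NemOdaMcwi was lowest, with animals at 6.24 and 6.05, and SR/JrHsd was next with 6.06, 6.40 and 6.36. SHRSP/A3NCrl was highest, with 7.23 and 7.13, followed by LEW/Crl with 7.07, 7.17 and 7.00. The extremes were 2.05-fold apart. LEW/SsNHsd, whose animals are not in doubt, had 6.88, 6.96 and 6.92. The call over all strains was lost without all animals numbered 2 or 3 (adjusted p = 0.130 and 0.0780, limma) and in the v7.1 table of reconstructed genes (adjusted p = 0.0520, limma). That table holds 2 features of Chrnb3, of which the one with the higher mean was used. The call within the classic inbred strains was lost without all animals numbered 2 (R2 = 0.714, adjusted p = 0.112, limma). R2 with no strain effect would be 0.487 in that fit. Without the animals in doubt, R2 within the classic inbred strains was 0.739 (adjusted p = 3.80e-05, limma).

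Chrna6 encodes α6, a subunit of receptors on dopamine terminals. It was not called over all strains (R2 = 0.436, adjusted p = 0.0904, limma), other than in the v5 table (R2 = 0.483, adjusted p = 0.0105, limma) and with the batch in the fit, and was called within the classic inbred strains (R2 = 0.547, adjusted p = 0.0380, limma). That call was lost under 10 of 13 alternatives, with adjusted p between 0.0513 and 0.550 (limma), among them leaving out any 1 replicate number, the animals in doubt, and the replicate block. BDIX/NemOdaMcwi and SR/JrHsd, the lowest strains for Chrnb3, were also the lowest for Chrna6. Their animals were at 5.16 and 4.50 in BDIX/NemOdaMcwi and at 4.73, 4.84 and 5.08 in SR/JrHsd. PVG/Seac was highest with 5.78, 5.88 and 5.75. Its mean was 1.96-fold that of BDIX/NemOdaMcwi.

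Chrna2 encodes α2, a subunit with a restricted pattern in rodent brain. It had the lowest R2 of the 9, at 0.331 (adjusted p = 0.714, limma), below that of a layout with no strain effect, and a between-strain component of 0. The lowest strain was WAG/RijCrl (3.93, 3.71 and 3.91) and the highest of at least 2 animals LEXF10A/Stm (4.47, 4.19 and 4.39). A higher value, 4.59, was that of the single LE/Stm animal with high liver markers.

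The shape of the strain distributions was read from normal mixtures of 1 to 3 clusters with equal variance, as a description. Over all 74 strains, 2 of 9 members had 2 clusters by the best BIC, where 9.24% of all features had more than 1. Chrnb3 split into 53 strains around 6.52 and 21 around 6.94. Chrna2 split into 72 and 2 strains, the latter being LE/Stm and LEXF2B/Stm with 1 animal each, and no mixture was fitted without the LE/Stm animal. Within the 30 HXB/BXH strains 2 of 9 members had 2 clusters (background 11.7%). Chrnb3 split into 24 strains around 6.56 and 6 around 6.93, with a BIC better by 3.95 than that of 1 cluster. Chrna4 split into 23 around 10.53 and 7 around 10.77, with a BIC better by 3.51. For Chrnb3 over all strains the gain was 0.73, which is small.

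Strain pairs chosen for this report were then set against each other with limma, in a model of every strain that shares 1 estimate of the spread. In each of the 4 pairs 0 of 9 members passed a false discovery rate of 5% by limma, and 0, 1, 1 and 1 had an unadjusted p below the same level, where 19.2%, 8.5%, 5.99% and 12.8% of all features did. The background of adjusted calls was 4.6% for BN-Lx/Cub against SHR/OlaIpcv, 0.825% for SHR/OlaIpcv against WKY/NCrl, 0.944% for LEW/SsNHsd against F344/NHsd and 0.791% for F344/Stm against LE/Stm. The last pair sets 3 animals against 1, so that its p-values assume that the lone LE/Stm animal varies like those of other strains. The first 2 pairs share the SHR/OlaIpcv animals. Between the HXB/BXH progenitors, Chrna5 was higher in BN-Lx/Cub by 0.20 ± 0.13 (SE, log2, 3 against 2 animals), with an adjusted p of 0.434 by limma. With the batch in the fit it was 0.50 (adjusted p = 0.108, limma), and in the v5 table it was -0.0079. The v5 table holds SHR/OlaIpcv animals numbered 1, 2 and 3, where the table used here holds numbers 1 and 4, so that the turned direction compares partly different animals.

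Between LEW/SsNHsd and F344/NHsd, strains long compared in studies of drug intake, Chrnb3 was the member with the largest difference. The F344/NHsd animals were at 6.15, 6.35 and 6.51, all below the LEW/SsNHsd animals given above. The difference was 0.59 ± 0.19 (SE, log2, 3 against 3 animals), with an unadjusted p of 0.00301 and an adjusted p of 0.182 by limma. With only these strains in the fit the adjusted p was 0.0304 (background 1.26% of all features), and in the v5 table the difference was 0.66 with an adjusted p of 0.0321 by limma (background 1.46%). The other 8 members differed by at most 0.27 in either direction.

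Between the hypertensive SHR/OlaIpcv and WKY/NCrl, Chrna7 differed by -0.36 ± 0.14 (SE, log2, 2 against 3 animals), with an adjusted p of 0.317 by limma. Other fits and other tables, with no single animal left out, gave differences from -0.36 to -0.08. The WKY/NCrl animals were at 8.39, 8.64 and 8.40, above both SHR/OlaIpcv animals. By the study's methods these strains also differed in source and tissue storage, which cannot be told apart from strain. Chrnb3 differed by -0.08 in that pair, with an adjusted p of 0.959 (limma). In the v5 table, with its partly different SHR/OlaIpcv animals, the Chrnb3 difference was -0.58, with an adjusted p of 0.0125 (limma). There 24.4% of all features were called for this pair. With the batch in the fit of the table used here it was -0.84 with an adjusted p of 0.360 (limma). The cause was not tested. Between F344/Stm and LE/Stm, Chrna2 was lower in F344/Stm by 0.51 (3 against 1 animals, adjusted p = 0.382, limma), a difference that rests on the LE/Stm animal with high liver markers. In the v5 table, which holds the LE/Stm animals numbered 1 and 3 instead, both also in doubt, it was -0.026 (adjusted p = 0.963, limma).

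Pairs of members were compared across strain means by Pearson r with permutation tests (100000 resamples, two-sided) and Benjamini-Hochberg adjustment over the 36 pairs. Strains were permuted as if unrelated, here and for the marker lists below. Strains of a family, their progenitors and substrains are related, and the p-values across strains do not account for this. Over all 74 strains 3 pairs passed. Chrna4 and Chrnb2 rose and fell together, with r = 0.70 (adjusted permutation p = 3.6e-04, Spearman's rho = 0.69). Without the 2 strains farthest from the Chrna4 median r was 0.67, and in the single panels r was 0.58, 0.78 and 0.68 (HXB/BXH, FXLE/LEXF and classic inbred), each past the test. In the v5 table the relation was lost over all strains (r = 0.02, adjusted permutation p = 0.933) and in HXB/BXH (r = 0.29, adjusted permutation p = 0.250). Chrna7 and Chrnb2 had r = 0.36 (adjusted permutation p = 0.0164), while rho = 0.31 did not pass (adjusted permutation p = 0.0962). This r was 0.34 without the 2 farthest strains, 0.32 after subtraction of the panel means (adjusted permutation p = 0.0533) and 0.11 in the v6 table (adjusted permutation p = 0.666). The pair passed in no single panel. Its r was 0.01 in HXB/BXH, 0.48 in FXLE/LEXF (adjusted permutation p = 0.328) and 0.47 in the classic inbred strains (adjusted permutation p = 0.129). With the batch in the fit, 26 of the 36 pairs passed in place of 3. In that fit, with 1 library per animal, batch 13 shared no strain with other batches. Batches 18 to 20 shared strains only among themselves. Strain effects cannot be compared between such unconnected batches, so r over all strains also holds unknown differences between them. The part of this in the count was not tested.

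Chrna3 and Chrna5 went in opposite directions. Over all strains r was -0.40 (adjusted permutation p = 0.00828; rho = -0.43), and -0.37 without the 2 strains farthest from the Chrna3 median. In HXB/BXH r was -0.63 (30 strains, adjusted permutation p = 0.0072; rho = -0.60) and -0.52 without 2. In the classic inbred strains r was -0.43 (25 strains, adjusted permutation p = 0.191), and in FXLE/LEXF -0.19 (19 strains, adjusted permutation p = 0.863), and the difference between panels was not tested. BXH13/Cub, lowest for Chrna3, ranked 4 from the top of the 74 strains for Chrna5, with animals at 8.09, 8.27 and 8.20. HXB2/Ipcv, ranked 5 from the top for Chrna3 (6.42 and 6.32), was 6 from below for Chrna5 (7.82 and 7.68). Without the animals in doubt and the doubtful HXB17/Ipcv animal, r was -0.37 over 72 strains and -0.65 in HXB/BXH. With the batch in the fit it was -0.43 over all strains (adjusted permutation p = 4.1e-04) and -0.45 in HXB/BXH (adjusted permutation p = 0.0566). The former value carries the limit on unconnected batches given above. Without all animals numbered 2, or numbered 3, r over all strains was -0.27 and -0.26 and no longer passed (adjusted permutation p = 0.211 and 0.155), and in HXB/BXH it was -0.48 without number 3 (adjusted permutation p = 0.0647). In the v6 table r was -0.36 over 58 strains (adjusted permutation p = 0.0800) and in the v5 table -0.29 over 45 strains (adjusted permutation p = 0.104). The Chrna5 gene level had r = 0.14 to its only matched transcript across strain means. Whether reads from the overlapping tails of both genes have a part in the relation of Chrna3 and Chrna5 was not tested.

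The relation of Chrnb4 to its neighbours did not pass across all strains, with r = 0.04 to Chrna3 (adjusted permutation p = 0.915) and -0.02 to Chrna5 (adjusted permutation p = 0.915). In HXB/BXH its r to Chrna3 was 0.38 (adjusted permutation p = 0.146), which became 0.55 without all animals numbered 3 (adjusted permutation p = 0.0148), and in the v5 table r was 0.48 over all strains (adjusted permutation p = 0.00747). Within HXB/BXH Chrna4 and Chrnb4 had r = 0.53 (adjusted permutation p = 0.0379; rho = 0.53). They did not pass over all strains (r = 0.24, adjusted permutation p = 0.146). Nor did they in FXLE/LEXF (r = -0.05, adjusted permutation p = 0.863) or in the classic inbred strains (r = 0.15, adjusted permutation p = 0.883). Chrna6 and Chrnb3 had r = 0.21 over all strains (adjusted permutation p = 0.239) and 0.48 in HXB/BXH (adjusted permutation p = 0.0517). This pair passed under 4 of 9 alternatives over all strains and under 5 of 9 in HXB/BXH. Leaving out 1 replicate number gave r up to 0.355 and 0.617. With the batch in the fit the latter pair reached 0.36 over all strains and 0.72 in HXB/BXH (adjusted permutation p = 0.00309 and 0.00108). The value over all strains carries the limit on unconnected batches.

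**Figure D3:**
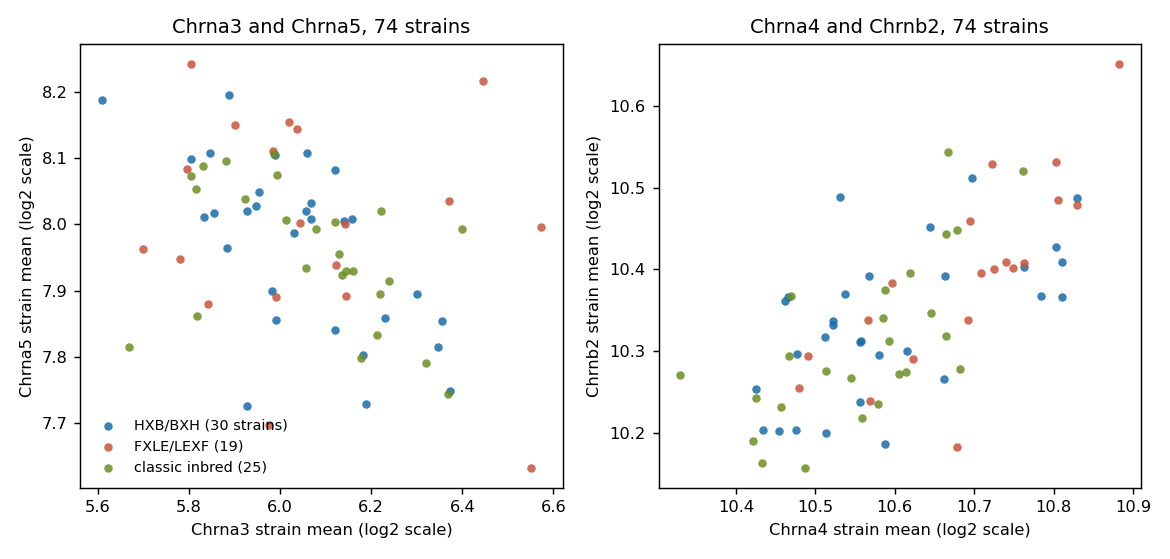
Strain means on the log2 scale of Chrna5 against Chrna3 and of Chrnb2 against Chrna4, with 1 point per strain (74) coloured by panel. Chrna5 falls as Chrna3 rises (r = -0.40), and Chrnb2 rises with Chrna4 (r = 0.70).

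Animals of 1 strain share a genotype, so deviations from the strain mean show how the genes moved together among them. Across 192 animals of 69 strains, 15 of the 36 pairs passed a permutation test within strains (100000 resamples, Benjamini-Hochberg over 36 pairs). The share that passes among pairs of other features was not computed, here or across strain means. Outside the members, Chrna4 had r = 0.81 to Ctif and Chrnb2 had r = 0.83 to Atg9a within strains. Among the 36 pairs, Chrna4 and Chrnb2 again led with r = 0.70 (adjusted permutation p = 1.2e-04; rho = 0.70), and r was 0.67 without the 2 farthest animals. Chrna6 and Chrnb3 (r = 0.45, rho = 0.39), Chrna7 and Chrnb2 (r = 0.45, rho = 0.44), Chrna4 and Chrna7 (r = 0.40, rho = 0.38), and Chrna3 and Chrnb4 (r = 0.40, rho = 0.39) followed, with adjusted permutation p of at most 1.8e-04. Chrna3 and Chrna5 did not pass within strains, with r = -0.13 (adjusted permutation p = 0.226; rho = -0.13). The negative pairs that passed all held Chrna5, with r = -0.33 to Chrna4, -0.22 to Chrnb2 and -0.22 to Chrnb4. Without the animals in doubt the pair with Chrnb4 had r = -0.18 (adjusted permutation p = 0.0964) and that with Chrnb2 r = -0.20 (adjusted permutation p = 0.0541), and neither passed. The pair with Chrnb2 did not pass with the batch in the fit either (r = -0.17, adjusted permutation p = 0.125). In all, 14 pairs passed with the batch in the fit.

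**Figure D4:**
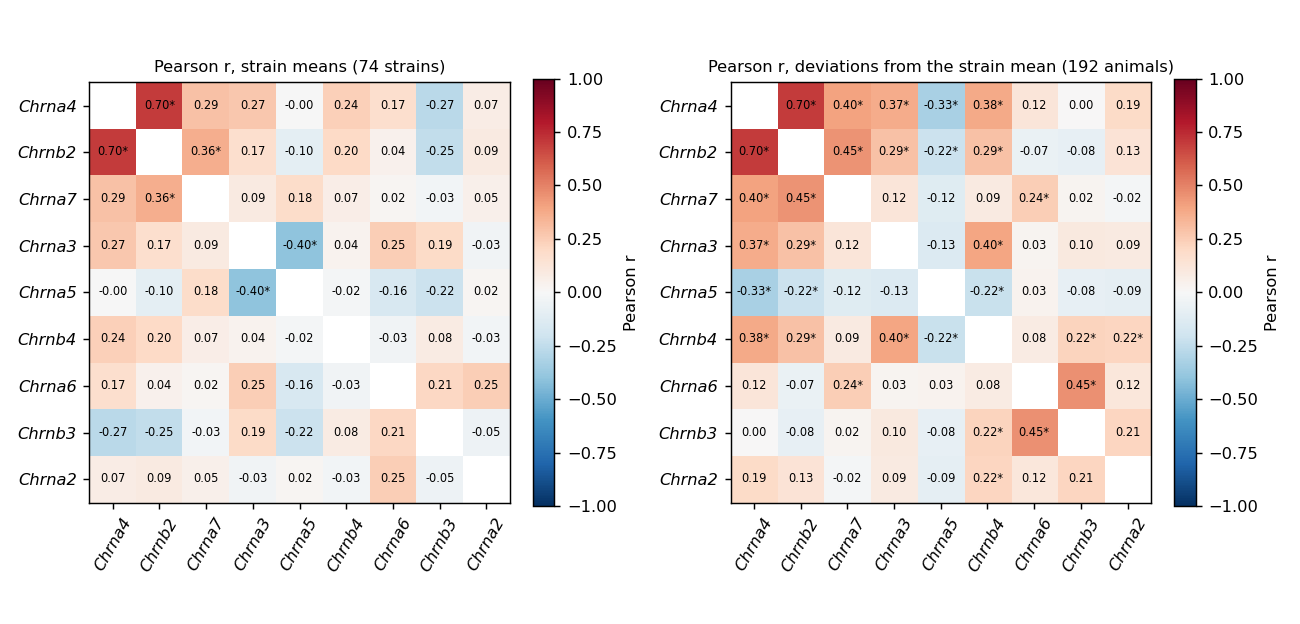
Pearson r between the subunit genes across 74 strain means (left) and across deviations of 192 animals from their strain mean (right), with stars on pairs past the permutation test at a false discovery rate of 5%. Chrna4 and Chrnb2 stand at 0.70 on both sides, while Chrna3 and Chrna5 go from -0.40 to -0.13.

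Markers of cell types were set beside the members, since whole tissue was measured. Of 90 relations of the 9 genes with 10 marker lists, 11 passed across strain means and 23 within strains (permutation tests, Benjamini-Hochberg over 90). Chrna6 followed the mean of 7 dopamine neuron markers, with r = 0.78 across strain means (rho = 0.67, adjusted permutation p = 9.0e-04) and 0.73 within strains (rho = 0.68, adjusted permutation p = 1.29e-04). Without the 2 farthest points r was 0.73 and 0.69. The list mean ran from 6.61 to 7.88 over animals. Chrnb3 had r = 0.49 to the same list within strains (rho = 0.48, adjusted permutation p = 1.29e-04), and 0.28 across strain means (adjusted permutation p = 0.0688). Within strains Chrnb3 also passed with astrocytes (r = 0.33), microglia (r = 0.30) and medial habenula (r = 0.29). Across strain means Chrnb3 passed with the means of 4 microglia markers (r = 0.41, rho = 0.32, adjusted permutation p = 0.00666), 5 neuronal markers (r = -0.35, rho = -0.21, adjusted permutation p = 0.0390) and 4 choroid plexus markers (r = 0.32, rho = 0.33, adjusted permutation p = 0.0470). Without the 2 farthest strains these were 0.32, -0.30 and 0.27. All 7 dopamine markers had a positive r to Chrna6 within strains, between 0.30 (En1) and 0.78. Slc6a3, the dopamine transporter, had this highest r, with and without the batch in the fit.

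Chrna3 followed the mean of 8 medial habenula markers within strains, with r = 0.61 (rho = 0.60, adjusted permutation p = 1.29e-04), and 0.59 without the 2 farthest animals. The list mean ran from 7.54 to 8.08. Across strain means r was 0.30 (adjusted permutation p = 0.0613). The single markers differed. Gpr151, a receptor of habenula neurons, had the highest r to Chrna3 within strains, 0.52 with and without the batch in the fit, and Synpo2 had 0.49, while the other 6 lay between 0.07 (Nwd2) and 0.25 (Tac3). Chrna4 had r = 0.52 and Chrnb4 0.31 to the list within strains, both past the test, while its single markers, which were not tested, went in both directions. Nwd2 and Nr4a2 had r = -0.19 each to Chrna4, and r to Chrnb4 was -0.26 for Nwd2, -0.11 for Gng8 and -0.08 for Nr4a2. These relations were not particular to habenula markers. Within strains Chrnb4 also passed with the dopamine neuron (r = 0.31), astrocyte (r = 0.29) and choroid plexus lists (r = 0.28), Chrna4 with dopamine neurons (r = 0.28), and Chrna3 with choroid plexus (r = 0.33) and neurons (r = 0.30). Chrna5 moved against the mean of 4 astrocyte markers, with r = -0.47 across strain means (adjusted permutation p = 9.0e-04) and -0.42 within strains (adjusted permutation p = 1.29e-04). Of the 4, Gfap (-0.50) and Aldh1l1 (-0.45) had this relation across strain means, and Aqp4 (-0.10) and Slc1a3 (-0.14) were near 0. Within strains r was -0.50 for both Gfap and Aldh1l1, -0.03 for Aqp4 and 0.10 for Slc1a3. Across strain means Chrna5 also passed with the choroid plexus list (r = -0.42, adjusted permutation p = 0.00390) and the dopamine neuron list (r = -0.34, adjusted permutation p = 0.0390). The other relations that passed across strain means were those of Chrna4 with neurons (r = 0.41), of Chrna6 with medial habenula (r = 0.32), and of Chrnb4 with choroid plexus (r = 0.33) and blood (r = -0.33). The single markers differed here too. For Chrna4, Rbfox3 (0.58) and Nefl (0.44) had a positive r and Syt1 (-0.03) and Map2 (-0.02) were near 0. For Chrna6, Pou4f1 had 0.52, while Tac3 had -0.26 and Nr4a2 -0.17. Chrnb2 had r = -0.45 and Chrna6 0.44 to 4 oligodendrocyte markers within strains, where Mbp alone had r = 0.08 to Chrnb2. The part of these markers in the strain effects was not tested.

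**Figure D5:**
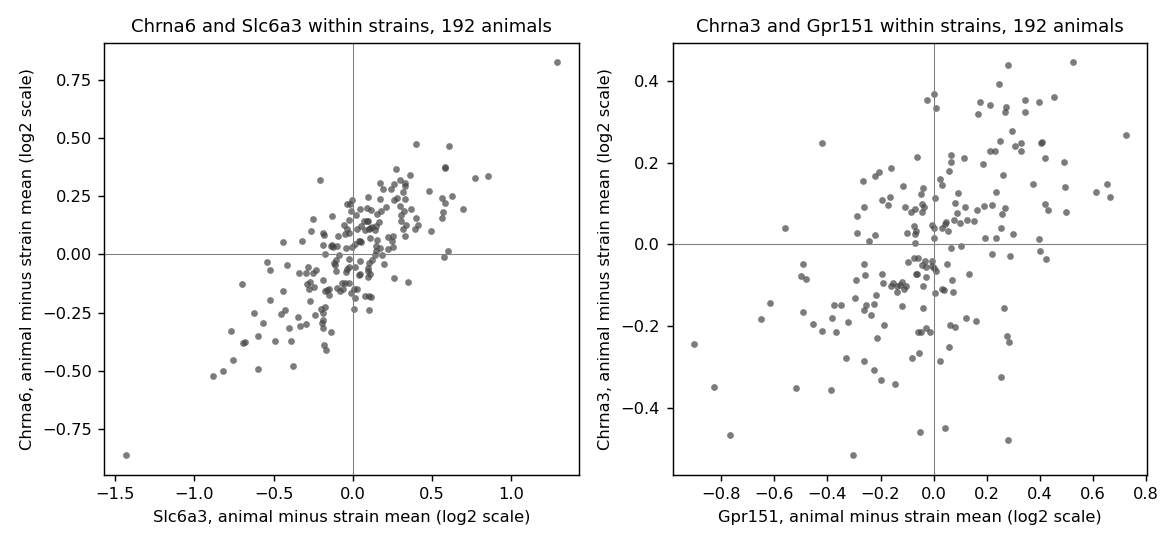
Deviations of 192 animals from their strain mean on the log2 scale, for Chrna6 against Slc6a3 and for Chrna3 against Gpr151, with 1 point per animal. Chrna6 rises with Slc6a3 (r = 0.78) and Chrna3 with Gpr151 (r = 0.52).

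For each member the 3 features most alike across the 74 strain means were named, as a description. Chrna6 was closest to Slc6a3 (r = 0.74), to the vesicular monoamine transporter Slc18a2 (r = 0.69) and to Minar1 (r = 0.67), the first 2 of which are among the dopamine markers. Chrna3 had no close partner, the top ones being Card9 (r = 0.46), Fhad1 (r = 0.44) and Gpr151 (r = 0.44). Chrna5 was closest to Rasgrp1 (r = 0.78), LOC100125362 (r = 0.76) and Plcb1 (r = 0.75), and Rasgrp1 and Plcb1 act in signalling below receptors. Chrna4 was closest to Ctif (r = 0.80), Capn5 (r = 0.79) and Arhgap44 (r = 0.79). Chrnb2 was closest to Zdhhc18, the synaptic vesicle gene Sv2a and Atg9a (r = 0.81 each).

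Chrna7 came with Eri3 (r = 0.68), Slc35f3 (r = 0.66) and the potassium channel gene Kcna3 (r = 0.64). Chrnb3 came with Ndnf (r = 0.69), Slc16a12 (r = 0.67) and Aox3 (r = 0.65). For Chrnb4 the top ones were Cngb1 (r = 0.54), Ntn4 (r = 0.51) and Nrsn2 (r = 0.50), and for Chrna2 they were Tmco3 (r = 0.53), Prpf6 (r = 0.50) and Prmt5 (r = 0.50).

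Genes around the receptor were read from 4 lists. Of the other receptor subunit genes, 2 of the 4 measured were called over all strains (background 37.1%). Chrna1, the muscle α subunit, had an R2 of 0.673 (adjusted p = 1.82e-09, limma), with strain means from 5.10 in WKY/NCrl to 6.01 in BN/NHsdMcwi, and Chrne had an R2 of 0.464. Of 11 genes of receptor assembly and modulation 3 were called (background 37.1%), namely the chaperone Ric3 (R2 = 0.546) and the membrane-bound modulators Lynx1 (R2 = 0.534) and Lypd6 (R2 = 0.478). Lypd6b, next by R2 (0.439), was not called. The median R2 of that list was 0.432, against 0.434 over all features.

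Of 7 genes of acetylcholine synthesis, transport and breakdown 3 were called (background 37.1%). Colq, the collagen tail that anchors acetylcholinesterase, had an R2 of 0.831 (adjusted p = 9.33e-24, limma), with strain means from 5.64 in HXB24/Ipcv to 6.85 in WKY/NCrl. Prima1, the membrane anchor of the same enzyme, had an R2 of 0.507, and the butyrylcholinesterase gene Bche 0.462. Slc5a7, the choline transporter, was not called (R2 = 0.422). Of 6 neighbours of the gene cluster 2 were called (background 37.1%), Hykk (R2 = 0.531) and Ireb2 (R2 = 0.468). Adamts7 (R2 = 0.443) was not called, and Crabp1 had an R2 of 0.429. Across strain means r to Chrna5, which was not tested, was -0.51 for Adamts7 and -0.16 for Crabp1. For the other neighbours it was positive, between 0.20 (Morf4l1) and 0.27 (Psma4).

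At the level of annotated RefSeq transcripts, 12 transcripts of the 9 members were matched, and 0 of 12 passed by limma, where 13.9% of 45918 transcripts did. Highest in R2 were the Chrna3 transcript NM_052805.2 (R2 = 0.470, adjusted p = 0.100), the Chrna4 transcript XM_039104383.1 (R2 = 0.460, adjusted p = 0.113) and the Chrnb3 transcript NM_133597.2 (R2 = 0.445, adjusted p = 0.169, all limma). For Chrna2, Chrna3, Chrna6, Chrna7, Chrnb2 and Chrnb4 the single transcript followed the gene, with r between 0.973 and 0.998 across strain means. The Chrna5 transcript NM_017078.2 had a mean of 5.43, where the gene was at 7.98, and r = 0.14 to the gene across strain means. Its R2 was 0.381 (adjusted p = 0.490, limma). Of the Chrna4 transcripts, NM_024354.2 (mean 10.46) had r = 0.99 to the gene, XM_039104383.1 (mean 5.18) 0.60 and XM_039104384.1 (mean 6.13) 0.30. For Chrnb3, r was 0.80 for NM_133597.2 and 0.49 for XM_039094179.1.

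The tables of the series gave the members different strain orders in places. Across the strains shared with the table used here, r of the strain means was between 0.92 and 0.99 for the 9 members in the v6 table. It was between 0.65 (Chrna7) and 0.90 in the v7.1 table of reconstructed genes, and between 0.29 (Chrnb2) and 0.86 in the v5 table. Among the reconstructed genes Chrna7 was split into 4 features, and Chrna5, Chrnb2 and Chrnb3 into 2 each. The feature with the highest mean stood for the gene in the fits of that table. Over the 45 strains of the v5 table, 7 of 9 members had a called strain effect (background 63.9%).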

How the data were processed

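RNA of rat brain was sequenced as stranded, ribosomal RNA-depleted libraries. The deposited values are log2-scale levels per gene or transcript made by the authors. Per the labels, the submitters' processing notes name cutadapt 1.9.1, Bowtie2 2.3.4.3 and 2.4.5, HISAT2 2.1.0 and 2.2.1, StringTie 1.3.5 and 2.2.1, RSEM 1.3.1 and 1.3.3, DESeq2 and the rn6 build. The study's methods describe removal of 1 factor of unwanted variation and a regularised log transformation for a final count matrix, without naming a table version. Which of these steps the tables used here had (v5, v6, v7.1) is not given in the sources used here. No counts were used, so the depth of a library is unknown.

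The v7.1 RefSeq gene table was the main one, without 73 spike-in features. Libraries of 1 animal were averaged, and strain and animal number were taken from the labels. Where nothing says that animals of a strain came from separate litters, the p-values measure the spread between these animals. Strain effects (moderated F-test) and 4 strain contrasts were fitted with limma 3.58.1 in R 4.3.3 over all features, in strains with at least 2 animals for the strain effect, and adjusted by Benjamini-Hochberg. Pairs of members and marker lists were tested by 100000 permutations, two-sided, with Spearman's rho and with r after leaving out 2 strains or animals. Mixtures were fitted with mclust 6.1.1. Other steps used Python 3.11.15, numpy 2.4.6, pandas 2.3.3, scipy 1.17.1 and matplotlib 3.10.9. The fits were tested on simulated data with set effects. The difference set in the simulated contrast was larger than those reported here, so that test does not measure the power for them. Promoters were matched by symbol.

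The 9 members, the gene lists and the marker lists were chosen with earlier results of these data known. Named were all 9 members, for each the lowest and highest strains, the 3 most alike features and the members of the 4 lists. FXLE15/Stm, BXH13/Cub and HXB2/Ipcv beside their second gene, single markers and the relations of members to further marker lists were chosen after their values were seen. Alternatives were batch terms, 1 library per animal, a filter at the median level, a replicate block, other deposited tables and leaving out animals.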

Additional observations from a re-analysis of the deposited data

How the results depend on the processing

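The number of members with a called strain effect depended on the table and on the animals. Over all strains it was 3, and became 0 with features below the median level dropped (which left 3 members, 34.7% of all features called), 7 in the v5 table (where 63.9% of all features were called) and 0 to 1 without all animals of 1 replicate number (14.8% to 30.4%). The filter left Chrna4, Chrna7 and Chrnb2 and dropped every member called here or within a panel, so its counts of 0 are no test of those calls. Within HXB/BXH 1 became 0 with that filter, in the v6 table and in the v5 table (14.6%, 16.2% and 23.0% of all features called), and 0 to 1 without 1 replicate number (7.95% to 8.81%). Within FXLE/LEXF 0 became 3 in the v6 table (5 strains, 18.1% of all features called) and 0 to 1 without 1 number (0.542% to 13.8%). Within the classic inbred strains 2 became 0 with the filter (12.04% of all features called) and 1 with the title batch as a covariate (14.6%), with 1 library per animal (17.0%), without the animals in doubt (18.2%), without these and the HXB17/Ipcv animal (18.2%), in the v6 table (14.0%) and in the reconstructed gene table (8.53%). It became 3 in the v5 table (33.7%), with Chrna5 among them, and 0 to 1 without 1 number (5.48% to 10.7%). In the strain contrasts 0 became 1 in the v5 table for SHR/OlaIpcv against WKY/NCrl, where 24.4% of all features were called, and 1 in the v5 table and with only the strains compared for LEW/SsNHsd against F344/NHsd, where 1.46% and 1.26% were.

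Of 36 pairs of members, 3 passed over all strains, 26 with the batch in the fit, 1 in the v6 table, 11 in the v5 table and 2 to 9 without 1 replicate number. Pair values over all strains with the batch in the fit carry the limit on unconnected batches given above. Within HXB/BXH 3 passed, 8 with the batch in the fit, 5 in the v6 table, 8 in the v5 table, 6 without the animals in doubt and the HXB17/Ipcv animal, and 3 to 7 without 1 number. The sign turned for Chrna5 between BN-Lx/Cub and SHR/OlaIpcv in the v5 table (-0.0079), and for the r of Chrna5 and Chrnb4 with the batch in the fit, which was 0.024 over all strains and 0.10 in HXB/BXH. The cause was not tested in any of these.

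With a replicate block the called members numbered 3 over all strains, 1 within HXB/BXH, 0 within FXLE/LEXF and 1 within the classic inbred strains, where 38.6%, 19.1%, 4.58% and 16.8% of all features were called with the same block. Deviations of same-numbered animals correlated with r between -0.09 and 0.26 across the strain pairs, and the labels name no litter or day that a number would mark. The numbers go in part with the batch: 3 of 17 batches, with 22 of 192 animals, held animals of 1 number only, so that a block or a left-out number takes part of the batch with it. The number of animals per strain, at most 3, limits the precision, and leaving out a number kept 58 to 62 of the 69 strains in the fit.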
